A study of Mus musculus with 26 samples.

Results

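The 9 genes of the brush border digestive hydrolases were followed in RNA-seq libraries of the proximal small intestine (SI), out of 55487 genes in the count table. They were listed by name, with earlier results of these data known, as disaccharidases (*Sis*, *Mgam*, *Lct*, *Treh*), peptidases (*Anpep*, *Enpep*, *Dpp4*, *Mme*) and the intestinal alkaline phosphatase *Alpi*, and all 9 were found and tested in every comparison. Libraries came from 26 mice of 8-12 weeks of age that carried loxP-flanked (fl/fl) alleles of the targeted gene. Knockout mice (labelled tg) also carried Villin-creERT2, a Cre recombinase driven by the villin promoter in intestinal epithelial cells (IECs) and activated by tamoxifen. Control mice (labelled wt) were littermates without the Cre transgene. Both genotypes received 5 daily tamoxifen injections, and tissue was taken 3 days (7 mice per genotype) or 7 days (6 mice per genotype) after the last. As no group carried Cre without the loxP-flanked alleles, effects of the active Cre and of the loss of the targeted gene cannot be told apart. The pieces held the whole gut wall, so each value is an average over the epithelium and other cells, and a smaller number of enterocytes cannot be told apart from less RNA per enterocyte.

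The brush border is the apical face of the enterocyte, a carpet of microvilli in which digestive enzymes are anchored with their active sites towards the gut lumen. These hydrolases complete digestion: disaccharidases split sugars into monosaccharides, peptidases cut peptides to amino acids and small peptides, and alkaline phosphatase removes phosphate groups. Enterocytes switch on these genes as they leave the crypt and climb the villus, and the products are taken up by transporters in the same membrane.

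Total counts were 3720168-6338016 per library. Some libraries stood apart by transcripts of neighbouring organs. The summed level of 9 stomach genes was above 10000 CPM (counts scaled to a common library total) in 3 libraries, namely knockout replicate 1 of 3 days, control replicate 5 of 3 days and control replicate 2 of 7 days. Knockout replicate 1 and control replicate 5 of 3 days each had the lowest value of their group for all 9 hydrolases. These values are part of the results below, which are also given without the 3 libraries rich in stomach transcripts. Pancreatic acinar genes at 3 days summed to 56.1-31958 CPM in knockout and 99.1-18907.5 CPM in control mice. No library was left out for its pancreatic transcripts.

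At 7 days after tamoxifen, all 9 hydrolases were lower in knockout mice under TMM normalization, and the change was very uneven. *Lct* had a log2 fold change of -5.52 and *Mme* of -4.43, those of *Anpep*, *Treh*, *Enpep* and *Dpp4* ran from -3.48 to -3.10, and that of *Sis* was -1.72. The falls of *Alpi* (-0.95) and *Mgam* (-0.53) were small. Both calls were lost when the libraries were scaled to 9 genes that all IECs express (below). With scaling to 16 microvillus genes, of which 13 were themselves called lower, *Alpi* was not called and *Mgam* changed direction. Called here means a Benjamini-Hochberg adjusted p under 0.05 over all genes tested in the quasi-likelihood test of edgeR. Of all 20259 genes tested, 18.8% were called lower and 19.7% higher. In 8 of the 9 genes the highest knockout mouse lay below the lowest control mouse, which held for 11.6% of all genes tested. The median log2 fold change of the 9 genes was -3.23, and that of all genes was -0.02.

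Sucrase-isomaltase, the product of *Sis* (chromosome 3, 72888557 to 72967863, minus strand, GRCm38), splits sucrose and the branch points of starch. At 7 days *Sis* was at 1072 CPM in the lowest control mouse, with a median of 1584 and a highest value of 2489. In knockout mice it was at 408, 490.1 and 632 CPM, so the groups did not overlap. The log2 fold change was -1.72 ± 0.19 (SE, adjusted p = 8.8e-07), or 3.30-fold lower. Maltase-glucoamylase, encoded by *Mgam* (chromosome 6, 40628831 to 40769123, plus strand), trims glucose from the ends of starch chains. *Mgam* was at 2073, 2635 and 2952 CPM (lowest, median and highest) in control mice and at 1189, 1813 and 2011 CPM in knockout mice. These groups came close without overlap, and the log2 fold change of -0.53 ± 0.15 (adjusted p = 0.0072) was the smallest of the 9 genes. With all 26 libraries in 1 fit, so that the spread of 3 days entered, *Mgam* did not pass (-0.52, adjusted p = 0.34).

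Lactase, encoded by *Lct* (chromosome 1, 128284756 to 128328318, minus strand), digests milk sugar and changed most. In control mice of 7 days *Lct* was at 741, 1040.4 and 1582 CPM (lowest, median and highest). In knockout mice it was at 10.1, 16.3 and 54.1 CPM, and the highest of these belonged to replicate 1. The log2 fold change was -5.52 ± 0.41 (adjusted p = 4.8e-09), or 45.9-fold lower. Without replicate 1 of the knockout it was -5.98. Trehalase, encoded by *Treh* (chromosome 9, 44673233 to 44686305, plus strand), splits trehalose, a sugar of fungi and insects. *Treh* was at 102, 108 and 161 CPM in control mice and at 5.55, 11.7 and 15.1 CPM in knockout mice, with a log2 fold change of -3.39 ± 0.21 (adjusted p = 3.7e-10). The disaccharidases of knockout mice thus ranged from a 1.44-fold to a 45.9-fold fall.

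**Figure D1:**
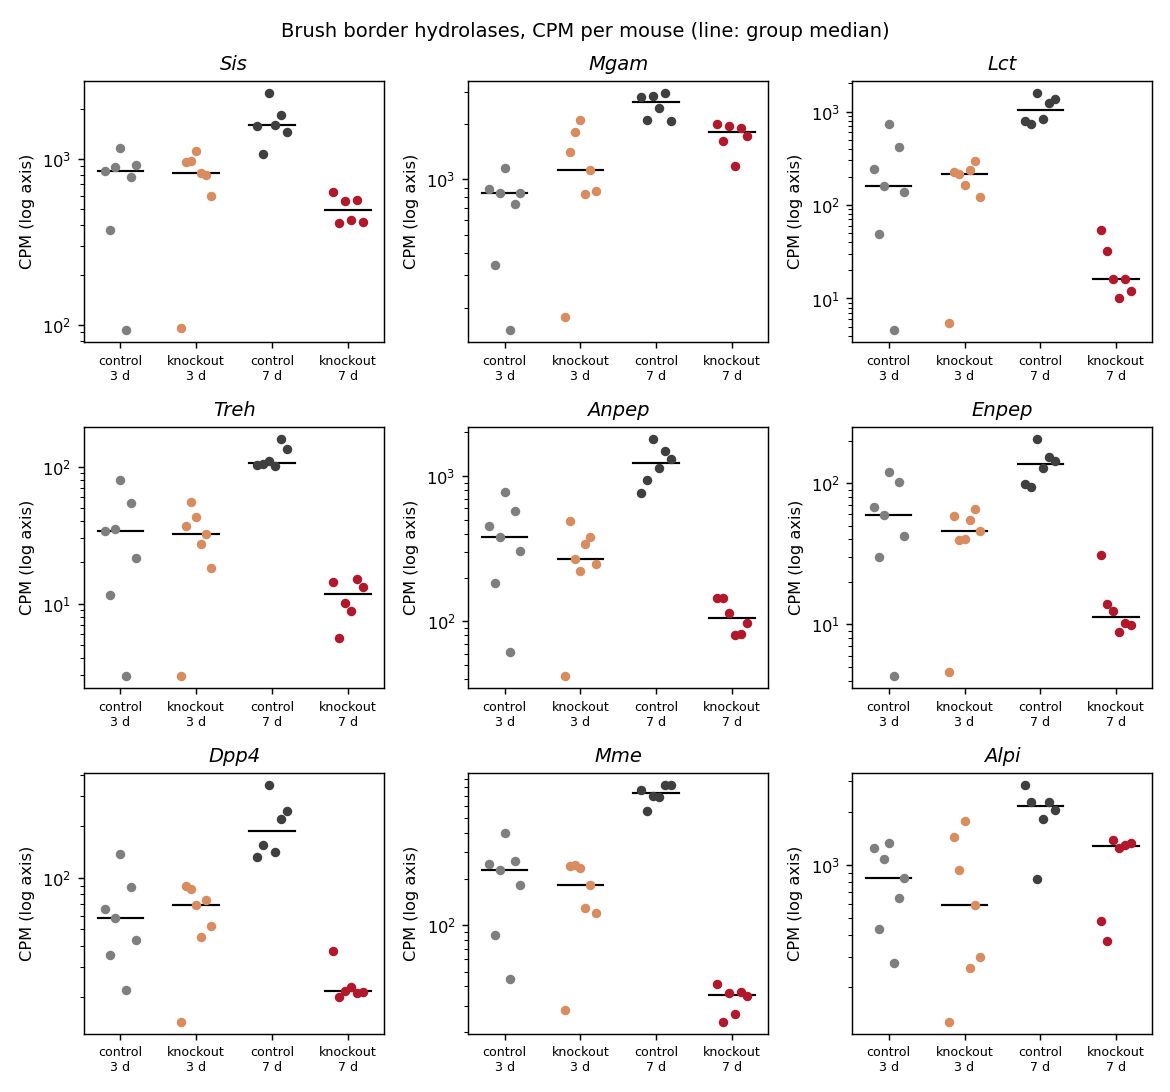
Level of each of the 9 hydrolase genes in each mouse, in CPM on a log axis, with 1 point per mouse and a line at the group median, for control and knockout mice 3 and 7 days after tamoxifen. At 7 days the knockout points lie below all control points except for *Alpi*, and at 3 days both genotypes overlap for every gene.

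The promoters of *Sis*, *Lct* and *Mgam*, the disaccharidases with an intermediate, the largest and the smallest fall, are shown so that their letters can be compared, as the RefSeq sequence of GRCm38.p6 from 250 bases before to 50 bases after the start of transcription. *Sis* lies at chr3:72967814-72968113 on the minus strand, *Lct* at chr1:128328269-128328568 on the minus strand and *Mgam* at chr6:40628581-40628880 on the plus strand. Capitals mark letters that match AGATAA for GATA factors and TTTATG for CDX factors, each searched on both strands. They also mark the TATA letters (TATAAA, those of a TATA box), searched on the strand of the gene. No 2 of the marked matches share a base.
Sis: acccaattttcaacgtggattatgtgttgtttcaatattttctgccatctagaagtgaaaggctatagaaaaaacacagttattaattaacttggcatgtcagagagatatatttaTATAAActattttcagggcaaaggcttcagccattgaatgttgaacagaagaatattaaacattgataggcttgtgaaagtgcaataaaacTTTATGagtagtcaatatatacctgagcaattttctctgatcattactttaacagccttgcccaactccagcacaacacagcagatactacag
Lct: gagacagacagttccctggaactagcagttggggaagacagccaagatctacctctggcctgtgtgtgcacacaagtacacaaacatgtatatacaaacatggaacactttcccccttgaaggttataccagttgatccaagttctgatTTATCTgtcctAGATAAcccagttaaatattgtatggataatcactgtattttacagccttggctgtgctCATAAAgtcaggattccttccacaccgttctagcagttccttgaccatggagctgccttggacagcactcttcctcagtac
Mgam: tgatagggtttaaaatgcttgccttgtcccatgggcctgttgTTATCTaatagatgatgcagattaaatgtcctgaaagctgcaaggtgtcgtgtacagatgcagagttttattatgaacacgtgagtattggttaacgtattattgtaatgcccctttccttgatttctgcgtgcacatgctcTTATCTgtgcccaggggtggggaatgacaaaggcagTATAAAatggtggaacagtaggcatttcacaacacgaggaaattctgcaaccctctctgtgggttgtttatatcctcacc
The *Sis* promoter held 1 match to the CDX letters, 43 bases before the start, and 1 to the TATA letters, 134 bases before it. The *Lct* promoter held 2 matches to the GATA letters, 101 and 90 bases before the start, and 1 to the CDX letters, 31 bases before it. The *Mgam* promoter held 2 matches to the GATA letters, 208 and 66 bases before the start, and 1 to the TATA letters, 30 bases before it. Promoters were found for all 9 genes, 11 in total, as *Mme* has 3 starts. Among the 9 genes, the GATA letters were found in 3, the CDX letters in 2 and the TATA letters in 3. The further gene with GATA and TATA letters was *Dpp4*, with the TATA letters 227 bases before the start. Of all 32851 promoters in the table, 11.2% held the GATA letters, 11.9% the CDX letters and 8.3% the TATA letters. These shares are per promoter, over 27025 genes, while the counts among the 9 genes are per gene. The matches describe letters in a window and no binding was measured.

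Among the peptidases, neprilysin, encoded by *Mme* (chromosome 3, 63241537 to 63386030, plus strand), a metalloendopeptidase of small peptides, fell most at 7 days. *Mme* was at 557, 733 and 832 CPM (lowest, median and highest) in control mice and at 23.5, 35.3 and 41.7 CPM in knockout mice. Its log2 fold change was -4.43 ± 0.17 (adjusted p = 1.0e-12), or 21.6-fold lower. *Anpep* (chromosome 7, 79821803 to 79861059, minus strand) encodes aminopeptidase N, which removes neutral residues from the N terminus of peptides. It was at 771, 1230.3 and 1812 CPM in control mice and at 80.4, 106 and 145 CPM in knockout mice, with a log2 fold change of -3.48 ± 0.23 (adjusted p = 1.3e-09).

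*Enpep* (chromosome 3, 129269175 to 129332720, minus strand) encodes aminopeptidase A, which removes acidic residues. *Enpep* was at 93.6, 135 and 206 CPM in control mice of 7 days and at 8.88, 11.4 and 31.0 CPM in knockout mice. The log2 fold change was -3.23 ± 0.29 (adjusted p = 7.1e-08). *Dpp4* (chromosome 2, 62330073 to 62412231, minus strand) encodes dipeptidyl peptidase 4, which cuts dipeptides with proline or alanine in the second position and also inactivates incretin hormones. *Dpp4* was at 133, 188 and 352 CPM in control mice and at 19.9, 21.6 and 37.1 CPM in knockout mice, with a log2 fold change of -3.10 ± 0.26 (adjusted p = 1.9e-08). Knockout replicate 1 was the highest of its group for both genes and still lay below every control mouse. Exons of *Dpp4* share 232 bases with the antisense RNA *Gm13561*, and as no strand option is stated for the counting, reads of these bases may be split between them.

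*Alpi* (chromosome 1, 87098002 to 87101606, minus strand) encodes intestinal alkaline phosphatase, which also detoxifies bacterial lipopolysaccharide. It was at 834, 2159.6 and 2859.9 CPM (lowest, median and highest) in control mice of 7 days and at 368, 1270.5 and 1378 CPM in knockout mice. Control replicate 3, at 834 CPM, lay within the knockout range, so *Alpi* was the only one of the 9 genes with overlapping groups. The log2 fold change was -0.95 ± 0.31 (adjusted p = 0.019), which did not pass with all 26 libraries in 1 fit (-0.94, adjusted p = 0.15). Its paralog *Akp3*, the other intestinal alkaline phosphatase, was listed at 0 in 2 knockout mice and 1 control mouse and reached 4.17 CPM in knockout and 20.7 CPM in control mice, with a log2 fold change of -2.35 ± 0.67 (adjusted p = 0.0096) that did not pass in DESeq2 (-2.36, adjusted p = 0.099). Reads may be split between the 2 paralogs, which lie close together on chromosome 1.

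At 3 days after tamoxifen, 0 of the 9 genes were called, and the genotypes overlapped for all 9. At this time 1.11% of 20760 genes tested were called higher and 0.323% lower, 297 in total, with 2832 genes at an unadjusted p under 0.05. The Wald test of DESeq2 also called 0 of the 9 genes, and 786 of all genes. *Lct* was at 4.57, 161 and 736 CPM (lowest, median and highest) in control mice and at 5.47, 212 and 294 CPM in knockout mice. Its log2 fold change was -0.31 ± 0.73 (adjusted p = 0.90), with a 95% confidence interval from -1.86 to 1.23. *Sis* was at 92.7, 849 and 1159 CPM in control mice and at 95.9, 821 and 1112 CPM in knockout mice. The interval of *Sis* ran from -0.76 to 1.22 around a log2 fold change of 0.23 ± 0.47 (adjusted p = 0.89).

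*Mgam* had the largest difference at 3 days, and its direction was opposite to that of 7 days without passing the test. It was at 151, 838 and 1154 CPM in control mice and at 179, 1117 and 2112 CPM in knockout mice. The log2 fold change was 0.90 ± 0.45 (unadjusted p = 0.063, adjusted p = 0.41), with an interval from -0.05 to 1.85. Without the 2 libraries of this time rich in stomach transcripts it was 0.92 (adjusted p = 0.082), and 0 of the 9 genes were called.

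The peptidases at 3 days had log2 fold changes between -0.32 and 0.08. *Anpep* was at 61.6, 384 and 781 CPM in control mice and at 42.0, 269 and 491 CPM in knockout mice. *Enpep* was at 4.30, 59.4 and 120.5 CPM in control mice and at 4.62, 45.5 and 66.0 CPM in knockout mice. Both had intervals that reached below -1 (-1.29 to 0.70 and -1.40 to 0.75), so a fall by 2-fold at this time lies within the error. *Dpp4* was at 21.9, 58.5 and 138 CPM in control mice and at 14.3, 69.3 and 88.9 CPM in knockout mice, and *Mme* at 44.9, 230.0 and 402 CPM in control mice and at 28.0, 185 and 249 CPM in knockout mice. *Treh* was at 2.96, 34.1 and 81.1 CPM in control mice and at 2.94, 32.6 and 55.7 CPM in knockout mice, and *Alpi* at 277, 843 and 1323 CPM in control mice and at 127, 586 and 1766 CPM in knockout mice. Within a group of 3 days the highest mouse exceeded the lowest by far for every gene, for *Lct* from 4.57 to 736 CPM in control mice.

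**Figure D2:**
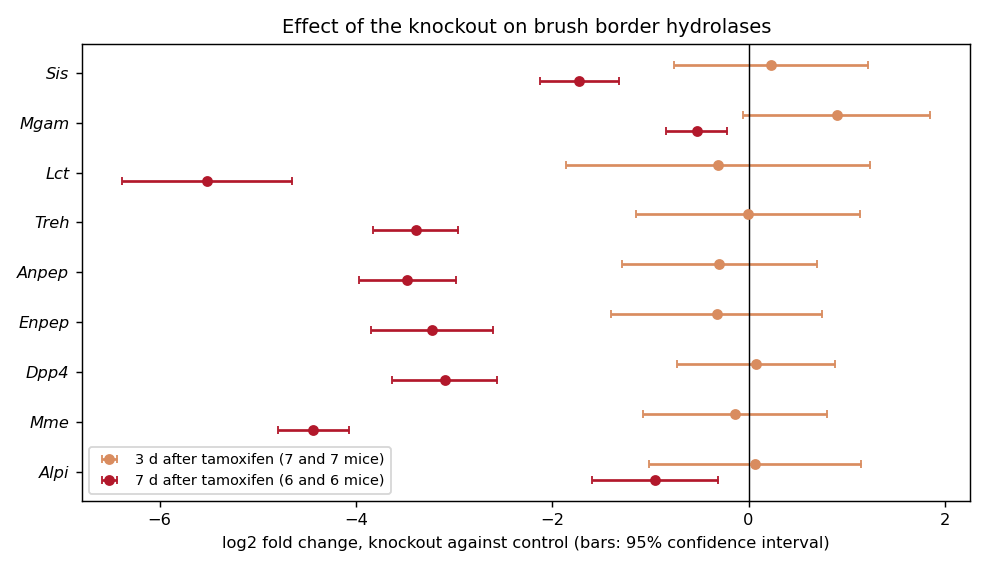
Log2 fold change of knockout against control for each hydrolase gene, with 95% confidence intervals, 3 days (7 and 7 mice) and 7 days (6 and 6 mice) after tamoxifen. The 3-day intervals of all 9 genes include 0, and the 7-day values run from -0.53 for *Mgam* to -5.52 for *Lct*. Scaled to microvillus genes, whose own median at 7 days is -0.95, *Mgam* lies at 0.35 at 7 days.

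The effect of the genotype itself differed between 7 and 3 days for 7 of the 9 genes in the interaction test over all 26 libraries, all 7 in the direction of a larger fall against control at 7 days. Of 19604 genes tested, 9.74% were called in this direction and 8.64% in the other. The levels of control mice were themselves higher at 7 than at 3 days (below), and this rise enters the test. *Sis* rose by 1.60 in control mice and changed by -0.45 in knockout mice (adjusted p = 0.37). The difference of the effects was -5.19 ± 0.98 on the log2 scale for *Lct* (adjusted p = 0.00028), -4.28 ± 0.55 for *Mme* (adjusted p = 2.0e-06), -3.37 ± 0.66 for *Treh* (adjusted p = 0.00047) and -1.94 ± 0.57 for *Sis* (adjusted p = 0.017). That of *Sis* did not pass with scaling to microvillus genes (-0.75, adjusted p = 0.13) or with the replicate number as a block (-1.92, adjusted p = 0.062). The values of *Anpep*, *Dpp4* and *Enpep* lay between -3.16 and -2.88. *Mgam* (-1.41 ± 0.53, adjusted p = 0.066) and *Alpi* (-0.997 ± 0.671, adjusted p = 0.35) did not pass, and *Alpi* turned to 0.26 with scaling to microvillus genes. *Mgam* passed without the 3 libraries rich in stomach transcripts (-1.49, adjusted p = 0.0025), without knockout replicate 1 (-1.60, adjusted p = 0.0076) or control replicate 4 of 3 days (-1.55, adjusted p = 0.046), and in DESeq2 (-1.45, adjusted p = 0.029).

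Between the days, the 9 genes were all higher in control mice of 7 days than of 3 days, by 1.56 (*Enpep*) to 2.54 (*Lct*) on the log2 scale, with adjusted p from 9.3e-05 (*Mgam*) to 0.0098 (*Enpep*), and this direction turned for *Sis* (-0.16), *Enpep* (-0.16) and *Alpi* (-0.080) when libraries were scaled to microvillus genes. With that scaling only *Lct* was still called (0.96, adjusted p = 0.046), and with scaling to pan-epithelial genes *Sis* (0.72, adjusted p = 0.061) and *Enpep* (0.68, adjusted p = 0.12) did not pass. Of 20646 genes tested, 19.7% were called higher and 16.3% lower. *Lct*, *Mgam*, *Treh* and *Mme* did not overlap between control mice of these days, as was true in this direction for 3.94% of all genes. The controls of the 2 days also differed in tissue markers: all 6 smooth muscle, all 6 fibroblast and all 5 endothelium and pericyte genes were lower at 7 days. The summed smooth muscle genes were at 579-1037 CPM in control mice of 7 days and at 1629-2933 CPM in those of 3 days. Day, batch and the makeup of the pieces cannot be told apart here, so levels are compared between genotypes within a day.

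In knockout mice 6 of the 9 genes were lower at 7 days than at 3 days, where 20.2% of 20329 genes were called lower and 16.7% higher. These were *Lct* (-2.76), *Mme* (-2.20), *Enpep* (-1.43), *Treh* (-1.30), *Anpep* (-1.21) and *Dpp4* (-1.18 on the log2 scale). The call of *Treh* was lost without knockout replicate 2, 3 or 4 of 3 days or replicate 2, 3 or 4 of 7 days (-1.22 to -1.09, adjusted p from 0.052 to 0.072). That of *Anpep* was lost without replicate 2 of 3 days or replicate 4, 5 or 6 of 7 days (-1.11 to -0.91, adjusted p from 0.051 to 0.058). *Sis* (-0.45, adjusted p = 0.37), *Mgam* (0.71, adjusted p = 0.16) and *Alpi* (0.52, adjusted p = 0.47) did not pass. *Sis* was called lower with scaling to pan-epithelial (-0.82, adjusted p = 0.030) or microvillus genes (-0.91, adjusted p = 0.014), which made 7 of the 9 genes lower. *Sis* also passed without knockout replicate 1 of 3 days (-0.65, adjusted p = 0.010) and *Mgam* without replicate 4 of 3 days (0.99, adjusted p = 0.042). Tissue markers differed between the days in knockout mice too. All 6 smooth muscle, 2 of 6 fibroblast and 2 of 5 endothelium and pericyte genes were lower at 7 days. Of 9 pan-epithelial genes, 5 were higher and 1 lower. As in control mice, day, batch and the makeup of the pieces cannot be told apart. The comparisons of this and the preceding paragraphs share their libraries with those between genotypes.

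The unequal fall of the disaccharidases can also be written as ratios within each library, from the same counts as the fold changes above. These ratios were chosen after the values had been seen and are given without a test. They need no scaling of libraries, but a ratio of counts of 2 genes has no meaning by itself and is compared only between mice. Per count of *Sis*, knockout mice of 7 days had 2.78-4.14 counts of *Mgam* (median 3.46), and control mice had 1.14-1.96 (median 1.58), with no overlap. At 3 days the ratio was 1.01-1.90 in knockout mice (median 1.47) and 0.917-1.63 in control mice (median 0.948), with overlap. For *Lct* the ratio to *Sis* was 0.0237-0.0856 in knockout mice of 7 days and 0.506-0.939 in control mice. At 3 days it was 0.0570-0.370 in knockout mice and 0.0493-0.635 in control mice, overlapping over most of this range.

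**Figure D3:**
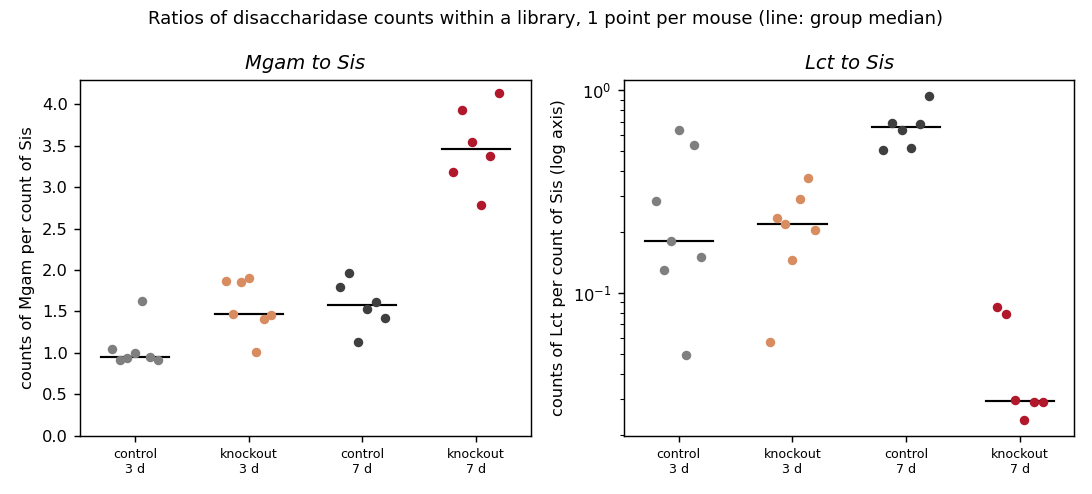
Counts of *Mgam* (left, linear axis) and *Lct* (right, log axis) per count of *Sis* within each library, with 1 point per mouse and a line at the group median. At 7 days the ratio of *Mgam* is 2.78-4.14 in knockout and 1.14-1.96 in control mice, and the ratio of *Lct* is 0.0237-0.0856 in knockout and 0.506-0.939 in control mice.

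Levels set against all RNA of a piece depend on how much of it comes from enterocytes, so the libraries were also scaled to genes of the epithelium. With scaling to 9 genes that all IECs express (such as *Epcam* and *Cdh1*), 7 of the 9 hydrolases remained called lower at 7 days, while *Alpi* (-0.69, adjusted p = 0.070) and *Mgam* (-0.25, adjusted p = 0.16) did not pass. With scaling to 16 genes of microvillus structure, an alternative chosen with the values in view, the same 7 were called lower, *Alpi* was at -0.14 (adjusted p = 0.69) and *Mgam* at 0.35 in the opposite direction (adjusted p = 0.017). Under TMM 13 of these 16 genes were themselves called lower (median log2 fold change -0.95). A gene that fell less than they did therefore comes out above 0 by construction. These scalings moved the median log2 fold change of all genes from -0.02 to 0.25 and 0.84. They also moved the calls over all genes from 3984 higher and 3806 lower to 6301 and 2245, and to 11540 and 1010. Relative to the median of all genes, *Mgam* was at -0.51, -0.50 and -0.49 and *Alpi* at -0.93, -0.94 and -0.98 under the 3 scalings. A change of scaling shifts all genes by nearly the same amount, so these values stay nearly equal by construction. They do not test whether *Mgam* or *Alpi* fell.

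**Figure D4:**
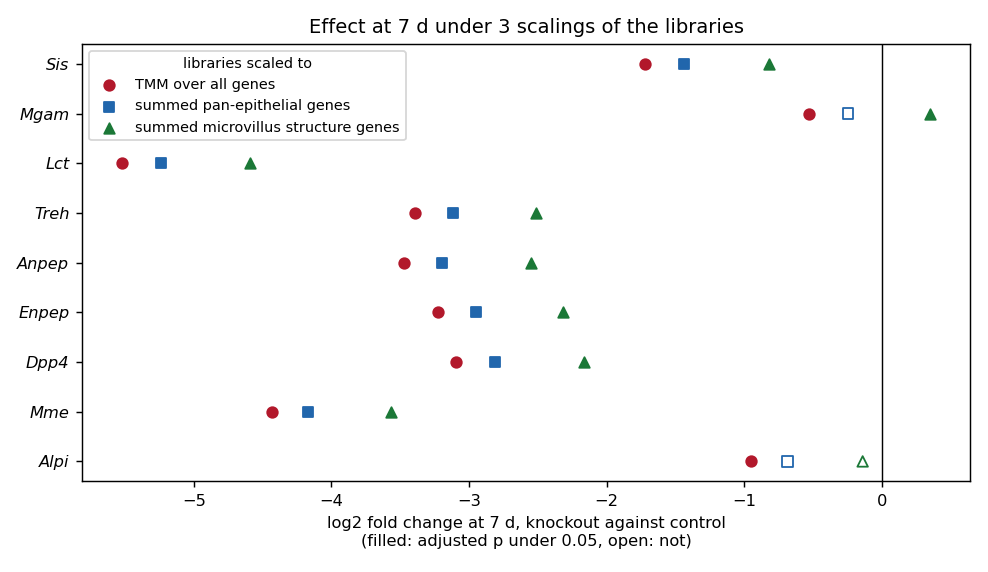
Log2 fold change of knockout against control at 7 days for each hydrolase gene when libraries are scaled by TMM over all genes, by 9 pan-epithelial genes or by 16 microvillus genes, with filled symbols for an adjusted p under 0.05. *Lct*, *Mme*, *Anpep*, *Treh*, *Enpep*, *Dpp4* and *Sis* are filled and below 0 in all 3, while *Mgam* moves from -0.53 over an open -0.25 to 0.35. The 16 microvillus genes had a median of -0.95 under TMM.

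Markers of other cells and positions were measured beside these falls at 7 days. Over all genes tested, 19.7% were called higher and 18.8% lower. Counts of 1 or 2 genes in these short lists are therefore not read as a change of a cell type. The pan-epithelial genes summed to 3478-3970 CPM in knockout and 4103-5321 CPM in control mice, without overlap, and of the 9 genes 3 were called higher and 4 lower (median log2 fold change -0.09). All 7 proliferation genes and 4 of 5 stem cell genes were lower. The summed stem cell genes were at 70.1-118 CPM in knockout and 327-412 CPM in control mice. Of 8 villus tip genes, 3 were higher and 2 lower, and of 7 goblet cell genes 1 was higher and 2 lower. All 5 endothelium and pericyte genes and 2 of 6 fibroblast genes were higher, and 0 of 6 smooth muscle genes were called. The lymphocyte and plasma cell genes summed to 207-429 CPM in knockout and 492-1220 CPM in control mice, without overlap, and of 6 tested 3 were lower and 2 higher. The ileal genes *Fabp6* and *Slc10a2* summed to 4.17-10.6 CPM in knockout and 0.385-4.28 CPM in control mice, and *Slc10a2*, the one that could be tested, was higher (log2 fold change 2.35 ± 0.44, adjusted p = 0.00030). The stomach genes summed to 1.58-4.53 CPM in knockout and 5.81-12034 CPM in control mice of 7 days, and the pancreatic acinar genes to 32.3-15262 CPM in knockout and 71.4-4303 CPM in control mice. The part of these cell types in the fall of the hydrolases was not tested. Without control replicate 2 of 7 days, the library rich in stomach transcripts, all 9 hydrolases were called lower.

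Other enzymes of the same membrane mostly fell too at 7 days. Of 15 further brush border hydrolases, 14 could be tested, and 10 were lower, 1 was higher and 3 were not called (median log2 fold change -3.00). Of all genes tested, 18.8% were called lower and 19.7% higher. *Asah2*, a ceramidase, was at 266, 401 and 667 CPM (lowest, median and highest) in control mice and at 13.3, 15.1 and 15.9 CPM in knockout mice, with a log2 fold change of -4.80 ± 0.22 (adjusted p = 1.1e-11). *Xpnpep2*, an aminopeptidase that acts before proline, had -3.74 ± 0.48 (adjusted p = 4.4e-06) at low levels, from 0.725 to 4.17 CPM in knockout and 12.6 to 81.6 CPM in control mice. *Nt5e* was the exception. It encodes a nucleotidase that makes adenosine and rose from 5.01-28.7 CPM in control mice to 143-181 CPM in knockout mice, a log2 fold change of 3.52 ± 0.33 (adjusted p = 8.3e-08). *Nt5e* is also one of the villus tip genes.

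The transporters that take up the products of these enzymes were lower in 10 of 10 cases (median -1.91), beside 18.8% lower and 19.7% higher of all genes. *Slc6a20a*, a carrier of proline, fell from 131-283 CPM in control mice to 0.569-2.96 CPM in knockout mice, with a log2 fold change of -6.97 ± 0.28 (adjusted p = 1.9e-12), and *Slc1a1*, a carrier of acidic amino acids, fell by 3.09 (adjusted p = 2.2e-08). The 16 genes of microvillus structure moved less. Among them 13 were lower, 1 was higher and 2 were not called (median -0.95). *Pdzk1*, a scaffold that holds transporters, fell by 3.00 (adjusted p = 5.3e-09) and *Slc9a3r1*, a related scaffold, by 1.59 (adjusted p = 3.2e-06), while *Baiap2l1*, a protein of microvillus growth, rose by 0.75 (adjusted p = 3.2e-05). Villin itself, encoded by *Vil1*, whose promoter drives the Cre, was at 490.0-902 CPM in control and 190-259 CPM in knockout mice (-1.57 ± 0.18, adjusted p = 1.2e-06).

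The RNA levels of genes for proteins that carry hydrolases to the apical membrane changed in both directions. Of 11 genes 10 were tested, and 4 were lower, 2 higher and 4 not called (median -0.34). *Pllp*, a membrane protein of apical endosomes, fell by 1.19 (adjusted p = 0.00018), and *Myo5b*, a motor of apical recycling endosomes, by 0.66 (adjusted p = 1.9e-05), but when scaled to microvillus genes *Pllp* was at -0.36 (adjusted p = 0.19) and *Myo5b* at 0.21 (adjusted p = 0.15). *Rab11a*, a GTPase of the same endosomes, rose by 0.57 (adjusted p = 0.00019) and *Stx3*, a fusion protein of the apical membrane, by 0.40 (adjusted p = 0.0076). Of 14 transcription factors of enterocytes, 8 were lower, 1 was higher and 5 were not called (median -0.61). *Maf* fell by 1.87 (adjusted p = 1.5e-08), from 986-1279 CPM in control mice to 205-358 CPM in knockout mice. *Hnf4g* fell by 1.61 (adjusted p = 2.0e-07). The corresponding counts over all genes are those given above, 18.8% lower and 19.7% higher.

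**Figure D5:**
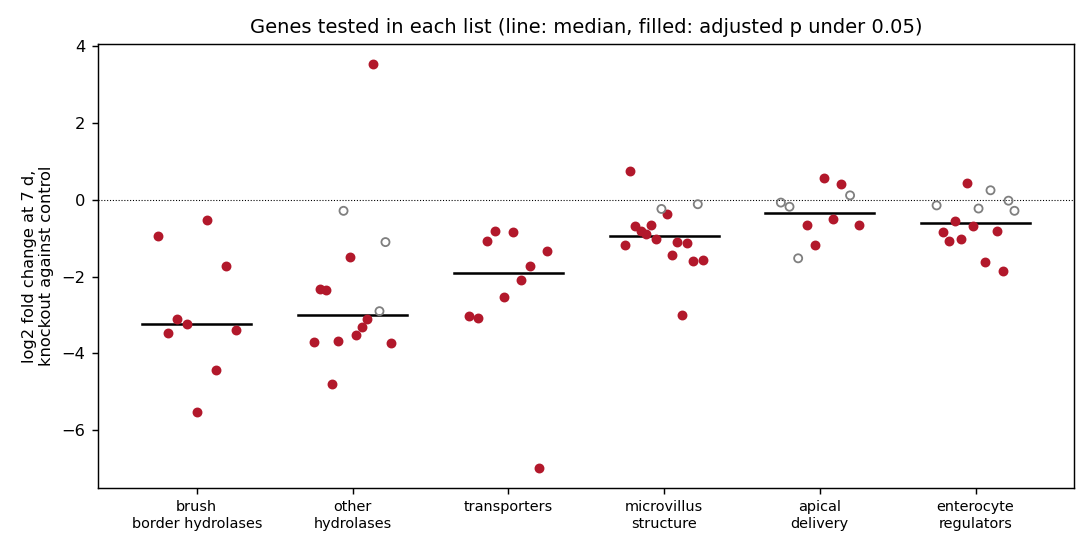
Log2 fold change at 7 days of each gene tested in the 9 hydrolases and 5 related lists, with a line at the median of each list and filled points for an adjusted p under 0.05. The medians run from -3.23 (the 9 hydrolases) over -3.00 (other hydrolases), -1.91 (transporters), -0.95 (microvillus structure) and -0.61 (enterocyte regulators) to -0.34 (apical delivery). These values use TMM, and *Mgam* and *Myo5b* lie above 0 when scaled to microvillus genes, whose own median is -0.95.

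At 3 days, 0 genes of the other hydrolases, with a median of 0.44, were called, beside 1.11% higher and 0.323% lower of all genes. The genes whose levels followed each hydrolase most closely over the 26 libraries were found by Pearson's r of log2 CPM among 9628 genes whose mean count reached 50. The libraries share groups and, within a group, tissue makeup, so these are descriptions only. *Lct* was closest to another member, *Enpep* (r = 0.988, Spearman's rho = 0.986), and *Enpep* next to *Anpep* (r = 0.974). *Sis* was closest to *Slc5a1*, the sodium-glucose cotransporter (r = 0.977), and *Treh* to the meprin subunit gene *Mep1b* (r = 0.976). *Mme* was closest to *Slc7a15* (r = 0.989) and *Dpp4* to *Slc27a4*, a fatty acid transport protein (r = 0.978). *Anpep* was closest to *Hadh*, an enzyme of fatty acid oxidation (r = 0.975). The genes with small falls had other neighbours. *Mgam* was closest to *Ldha*, a lactate dehydrogenase subunit (r = 0.983), and to the cadherin *Cdh17* (r = 0.975), and *Alpi* to the anion exchanger *Slc26a6* (r = 0.945).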

How the data were processed

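RNA of pieces of the proximal SI was sequenced from the 3′ end of transcripts (QuantSeq, FWD kit), with 1 library per mouse. The authors trimmed reads with cutadapt 2.10, aligned them to GRCm38 together with spike-in sequences by Subread and deposited estimated counts per gene from featureCounts 2.0.1, in which reads that hit more than 1 gene are divided into fractions. No option for the strand is stated. Of the values, 95.0% were whole numbers, and 92 spike-in rows held 0 counts. The authors also deposited a table of CPM, which equals these counts over the library total and was used for no test.

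Estimated counts were rounded to whole numbers (the design had been written for counts, rounded if fractional), and a gene was dropped if more than 0.5 of the libraries of either group were at 0, as the study did. Genotypes were compared within a day, days within a genotype, and the effects between days by an interaction term, by edgeR 4.0.16 in R 4.3.3 (quasi-likelihood test, TMM normalization, factors 0.838-1.18, Benjamini-Hochberg adjustment over all genes tested, 0.05). The SE of a log2 fold change is its size over the square root of F, and intervals use the same SE. Groups were taken from the sample labels. Replicates were separate mice, and 0 pairs of libraries were identical. CPM in the text are counts over the library total. The depth of 3720168-6338016 counts leaves genes with few CPM imprecise, and the spread given covers mice and counting together. Deposited fold changes or p-values were not used. The targeted gene and a listed transcription factor are not reported here.

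The members, the related lists and the genes named (all 9 members, of each related list up to 2 genes with the largest rise and 2 with the largest fall at 7 days among those called, and *Akp3* and *Vil1*) were chosen with earlier results of these data known. All 171 listed genes were found by symbol. Levels are described by likeness over 26 libraries on log2 CPM (prior count 2). Coordinates are from GENCODE vM21 (GRCm38) and promoters from RefSeq (GRCm38.p6). On simulated data with 200 changed genes, 95.0% of genes changed 4-fold and 71.0% of those changed 2-fold were recovered at 7 days among 21216 genes with 5 false calls, 84.0% of those changed 2-fold at 3 days among 20784 genes, and 48.0% in the interaction test among 20262 genes. The simulation gave each gene the same spread in all groups, so the wide spread of the hydrolases at 3 days was not modelled. Their SEs at 3 days were 0.38 (*Dpp4*) to 0.73 (*Lct*), and the shares recovered do not apply to them.

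Other settings tried were DESeq2 1.42.0 with its Wald test, its size factors within edgeR, no filter or filterByExpr in place of the filter above, a joint fit of all 26 libraries, the replicate number as a block, scaling to pan-epithelial genes, and the omission of each mouse in turn. Scaling to microvillus genes and the omission of the 3 libraries with more than 10000 CPM of stomach genes were chosen after seeing the data.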

Additional observations from a re-analysis of the deposited data

Results flagged for a closer look

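The genes of a group were measured in the same mice, so the groups of values tested here, 1 per gene, are not independent. Values of single mice far from the rest of their group, by the size of the gap to the nearest mouse over the range of the group on log2 CPM, were found in 10 of 36 groups tested, where chance would give about 1.8 only if these were independent. In 8 of these, knockout replicate 1 of 3 days was the lowest, with *Sis* at 6.43 (95.9 CPM), *Lct* at 2.40 (5.47 CPM), *Mgam* at 7.33 (179 CPM), *Treh* at 1.59 (2.94 CPM), *Anpep* at 5.25 (42.0 CPM), *Dpp4* at 3.72 (14.3 CPM), *Enpep* at 2.18 (4.62 CPM) and *Mme* at 4.67 (28.0 CPM). The stomach genes of this library summed to 10482 CPM. Whether this moved the hydrolases was not tested. The other 2 were knockout replicate 1 of 7 days, which was the highest of its group for *Dpp4* at 5.46 (37.1 CPM) and *Enpep* at 5.20 (31.0 CPM).

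The effect of the genotype differed between 7 and 3 days, by the interaction test, for *Sis* (-1.94), *Lct* (-5.19), *Treh* (-3.37), *Anpep* (-3.16), *Dpp4* (-3.16), *Enpep* (-2.88) and *Mme* (-4.28 on the log2 scale).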

How the results depend on the processing

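At 7 days the 9 falls and at 3 days the absence of calls among the 9 genes held under DESeq2, its size factors, both other filters and without any single mouse, and the log2 fold changes of *Lct* at 7 days were between -5.98 and -5.35 without 1 mouse. At 7 days 7 of the 9 genes were called lower with pan-epithelial or microvillus scaling and with all 26 libraries in 1 fit. Counts over all genes at 3 days (297) were less stable, with 786 in DESeq2, 110 with pan-epithelial scaling, 18 with microvillus scaling, 810 with all 26 libraries in 1 fit, 774 without the 2 libraries rich in stomach transcripts, and from 171 (without knockout replicate 4) to 779 (without knockout replicate 1) when 1 mouse was left out. Microvillus scaling gave 12550 calls at 7 days with 1 hydrolase higher, *Mgam* (0.35), and *Myo5b* at 0.21, 5458 in the interaction with *Alpi* at 0.26 and *Sis* not called (-0.75, adjusted p = 0.13), and 18469 between the control days with 1 hydrolase higher, *Sis* at -0.16, *Enpep* at -0.16 and *Alpi* at -0.080. Between the control days, pan-epithelial scaling gave 14364 calls. In knockout mice, 0 to 1 hydrolases were called higher at 7 than at 3 days without 1 mouse (1 without replicate 4 of 3 days, *Mgam*). The cause was not tested.

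Uncalled 3-day values near 0 changed sign. *Treh* was at 0.0013 with DESeq2 size factors, 0.013 in its Wald test and 0.0012 with all 26 libraries. With pan-epithelial scaling *Dpp4* was at -0.061 and *Alpi* at -0.15, and with microvillus scaling *Sis* was at -0.072, *Dpp4* at -0.19 and *Alpi* at -0.40. Without 1 mouse the ranges were -0.53 to 0.23 for *Lct*, -0.21 to 0.34 for *Treh*, -0.072 to 0.36 for *Dpp4*, -0.31 to 0.085 for *Mme* and -0.30 to 0.26 for *Alpi*.

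The labels do not say whether replicate numbers pair littermates, and the weak correlations found here cannot settle it. Correlations of same-numbered mice were -0.26 to 0.29 at 3 days and -0.11 to 0.23 at 7 days, and 3 of 14 and 3 of 12 libraries correlated best with their own number. With the number as a block, 99 genes were called at 3 days, with *Lct* at 0.039, *Treh* at 0.11 and *Alpi* at -0.28, all 9 hydrolases stayed lower at 7 days, and *Sis* did not pass in the interaction (-1.92, adjusted p = 0.062). The intervals of *Lct*, *Treh*, *Anpep*, *Enpep*, *Mme* and *Alpi* at 3 days include a 2-fold fall, so a change of this size at 3 days lies within the error.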

Other observations

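*Alpi* varied within both groups of 7 days, a pattern noticed in the values and not tested. Knockout replicates 1 and 2 had 479 and 368 CPM of *Alpi*, and the other 4 knockout mice had 1242-1378 CPM. Control replicate 3 had 834 CPM, and the other 5 control mice 1811-2859.9 CPM. The paralog *Akp3* was listed at 0 in these 3 libraries and in no other library of 7 days. Knockout replicate 1 was the highest of its group for *Anpep* (145 CPM), *Enpep* (31.0), *Dpp4* (37.1) and *Mme* (41.7). Knockout replicate 2 was near the top for *Anpep* (145 CPM) and *Enpep* (13.9) but the lowest for *Dpp4* (19.9) and *Mme* (23.5). Control replicate 3 was the highest for *Anpep* (1812 CPM), *Enpep* (206) and *Dpp4* (352), and at 695 CPM below the group median for *Mme*.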
